A study of Mus musculus with 12 samples.

Results

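The proteasome is described here through 31 genes of its core particle and of its cap, out of 54838 genes in the deposited table. A gene was taken when its symbol was one of Psma1 to Psma7 (the alpha rings), Psmb1 to Psmb7 (the beta rings), Psmc1 to Psmc6 (the ATPases of the cap), or Psmd1, Psmd2, Psmd3, Psmd4, Psmd6, Psmd7, Psmd8, Psmd11, Psmd12, Psmd13 and Psmd14 (the other cap subunits). This gave 14 core genes, 6 cap ATPase genes and 11 other cap genes, and all 31 passed the filter on low counts. RNA was sequenced from 12 mouse liver libraries, 4 in each of the groups DMH, DM and CTL. The labels name no strain, age, sex or treatment and do not spell out DM or DMH, and they do not say which groups, if any, received the red alga, rich in protoporphyrin IX, that the series title names. They also do not say that libraries of a group came from separate mice, so p-values reflect only how far these samples spread, and that spread may be technical.

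Proteins marked with ubiquitin are broken down by the proteasome. Its core is a barrel of stacked rings in which the outer alpha rings form a gate and the inner beta rings carry the cutting sites, and the cap binds ubiquitin chains, removes them and threads the unfolded protein into the barrel by means of its ATPase ring. In liver the proteasome clears damaged proteins and takes part in the turnover of metabolic enzymes, and its subunit genes are known to be raised together by the transcription factor NFE2L1 when proteasome activity falls short.

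Libraries held 13430122 to 17038017 counts. The hepatocyte genes Alb, Apoa1, Ttr, Apob and Cps1 summed to 26778 to 39760 CPM (counts relative to library size, here the plain total) in DMH, 33690 to 42359 in DM and 34927 to 56127 in CTL. The extraction text of the labels speaks of retinas; the photoreceptor genes Prph2 and Crx were at 0 in all 12 libraries, and the 6 retina genes examined summed to at most 54.2 CPM. The 10 Kupffer cell genes summed to 130 to 485 CPM in DMH, 76.7 to 207 in DM and 400 to 889 in CTL, and the 5 B and plasma cell genes to 23.9 to 37.4 CPM in DMH, 12.4 to 72.4 in DM and 149 to 235 in CTL. Their part in the results below was not tested. In bulk tissue, fewer cells of a type and less RNA per cell cannot be told apart.

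The 31 genes together took 0.164% ± 0.0291 of the counts in DMH, 0.216% ± 0.0663 in DM and 0.267% ± 0.0661 in CTL (SD, n = 4 each). Of the counts outside the mitochondrial genome they took 0.233% ± 0.0216 in DMH, 0.282% ± 0.0670 in DM and 0.317% ± 0.0744 in CTL, and on that scale CTL1, at 0.221%, lay below DMH2, DMH3 and DMH4. Levels below are CPM scaled with TMM factors unless a length or the plain total is named. Saa1 is on the plain total. So are averages that name no group, given where a gene shares sequence or exonic bases with another gene. Divided by the gene length that the deposited FPKM values imply, the highest mean level in CTL was that of Psmb5, which carries the chymotrypsin-like cutting site, at 59.4 ± 6.61 CPM per kilobase in DMH, 74.3 ± 13.98 in DM and 83.99 ± 20.4 in CTL. It was followed in CTL by the cap ATPase gene Psmc5 at 72.4 ± 13.3, Psmb4 at 54.99 ± 10.98, Psmb6 at 52.3 ± 12.5 and Psma6 at 48.5 ± 5.11 CPM per kilobase. The means of Psmb5 and Psmc5, of Psmb4 and Psmb6, and of Psmb6 and Psma6 differed by less than the SD of either gene, and those of Psmc5 and Psmb4 by more. At the low end stood Psma3 at 3.33 ± 0.388 in DMH and 3.91 ± 0.665 in CTL, and the lid gene Psmd13 at 0.960 ± 0.386 in DMH and 2.35 ± 1.04 in CTL. The implied length exceeded the annotated exonic bases of all 31 genes, by 1.04 to 2.41 times. Per kilobase of exonic bases, Psmb5 was again the highest gene in CTL and Psmd13 the lowest, and no gene moved by more than 5 places.

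The median over the 14 core genes was 18.1 CPM per kilobase in DMH, 23.0 in DM and 24.9 in CTL. Over the 6 ATPase genes it was 17.0 in DMH, 18.4 in DM and 22.4 in CTL, and over the 11 other cap genes 5.35 in DMH, 7.31 in DM and 8.68 in CTL. The order of the genes by level was much alike in DMH and CTL: 9 genes held the same place, and 2 moved by more than 3 places.

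The mean level was ordered DMH below DM below CTL in 27 of the 31 genes, against 22.9% of all 14643 genes tested. In Psma1, Psmb3 and Psmc6 the order was DMH, CTL, DM from low to high, and in Psmc4 it was DM, DMH, CTL. The lowest of the 12 libraries was a DMH library for 26 genes (39.0% of all tested genes), and for 15 of these it was DMH1 (15.7%). The highest was a CTL library for 27 genes (38.5% of all tested genes), and for 21 of these it was CTL2 (10.5%). Among the CTL libraries CTL1 was the lowest on average. Relative to the mean of the 12 libraries, the 31 genes averaged 0.02 there on the log2 scale, and 0.15 to 0.56 in CTL2 to CTL4. CTL1 also stood apart in genes outside the proteasome. Saa1, an acute-phase gene of the liver, was at 26033 CPM in CTL1 and at 96.3 to 1359 in the other CTL libraries. It was at 12.5 to 75.9 CPM in DMH and 24.8 to 42.1 in DM, so every CTL library was above all of these. The 6 neutrophil genes summed, on the plain total, to 0.772 to 13.49 CPM in DMH and 2.05 to 6.03 in DM. Their sum was 313 CPM in CTL1 and 7.79 to 26.7 in the other CTL libraries. The part of these genes in the proteasome levels was not tested. Without CTL1, edgeR called 13 of the 31 genes lower in DMH than in CTL, where 4.27% of all tested genes were lower. The median log2 fold change of the 31 genes was -0.64, and 10 of the 13 were also called with all libraries.

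**Figure D1:**
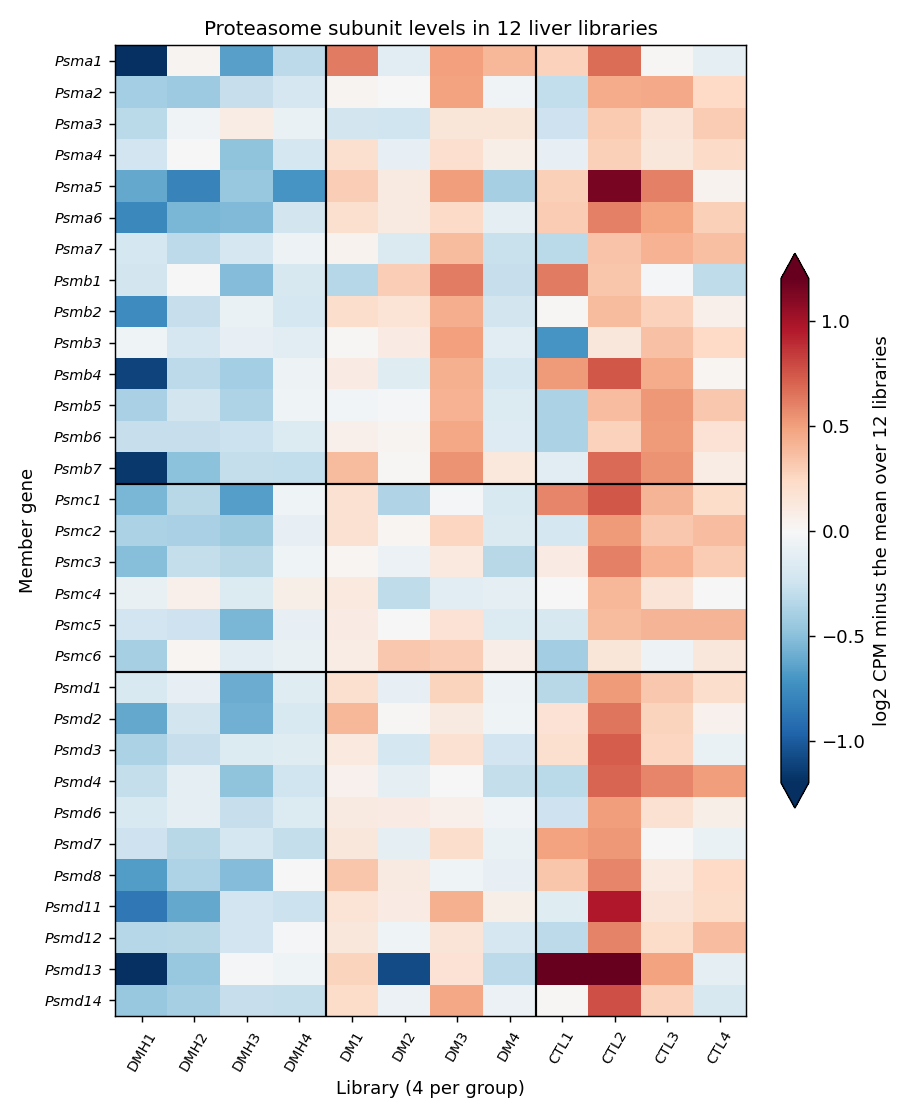
Log2 level of each proteasome gene (rows, by place in the complex) in each of the 12 libraries (columns, DMH, DM, CTL), as the difference from the gene's mean over all libraries; colours are capped at both ends of the scale. Most rows are below their mean in DMH1 to DMH4 and above it in CTL2 and CTL3, with CTL1 mixed.

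Comparing DMH with CTL, genes of the core, of the ATPase ring and of the rest of the cap were called, and all called genes were lower in DMH. The edgeR quasi-likelihood test with Benjamini-Hochberg adjustment over 14643 genes called 13 of the 31 genes lower in DMH at an adjusted p under 0.05 and 0 higher, where 8.15% of all tested genes were lower and 7.25% higher. The log2 fold change was below 0 in all 31 genes, against 50.6% of all tested genes. Its median was -0.54 over the 31 genes and -0.01 over all tested genes, a median level 31.4% lower in DMH. The 13 called genes fell to between 0.430 and 0.695 times the CTL level. Of the 18 not called, 7 had adjusted p between 0.05 and 0.1. The share of all tested genes in that interval was not counted. At an unadjusted p under 0.05, 25 of the 31 genes were lower, against 17.0% of all tested genes, and 0 higher, against 16.0%. In 13 genes every DMH library lay below every CTL library (10.9% of all tested genes), and 10 of these were also called; in 0 genes did every DMH library lie above every CTL library (8.64%).

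**Figure D2:**
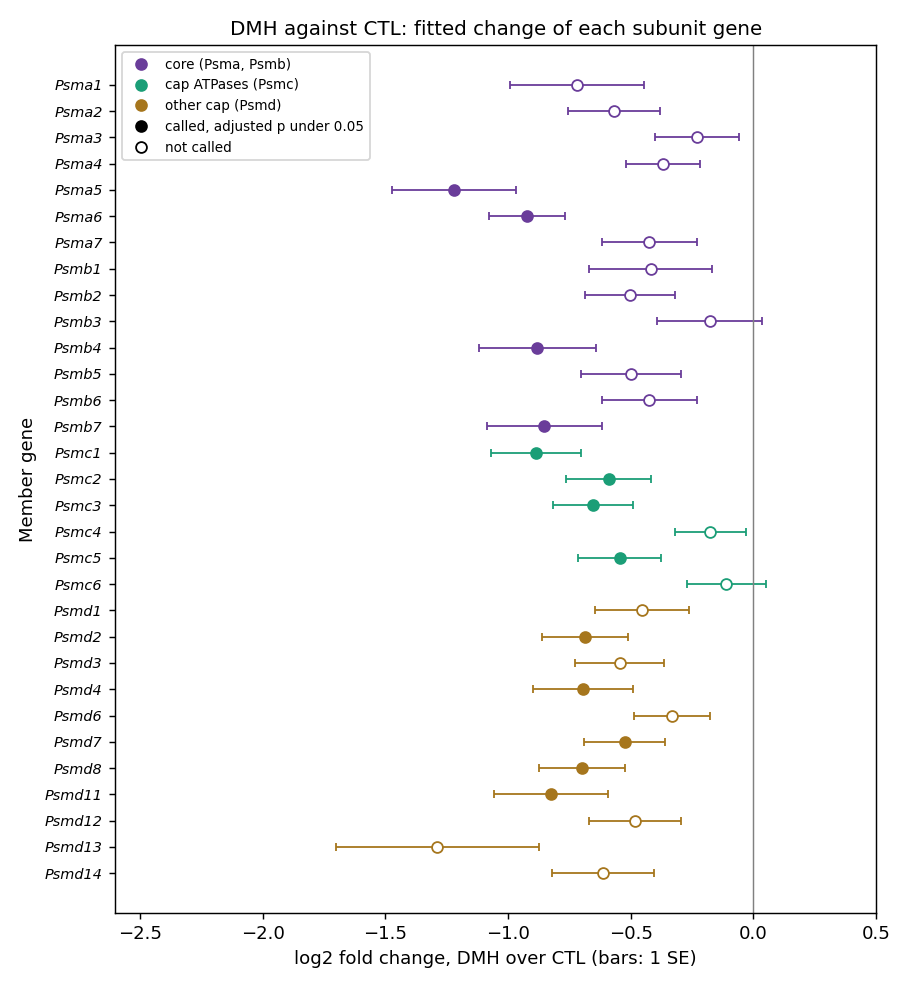
Log2 fold change of DMH over CTL for each of the 31 genes with its standard error (horizontal bars), grouped by place in the complex and with the called genes marked. All 31 points lie left of 0, from -1.29 in Psmd13 to -0.11 in Psmc6.

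In the alpha ring, which gates the core, 2 of 7 genes were called. Psma6 (ENSMUSG00000021024, chromosome 12, 55384222 to 55418454) measured 40.3, 47.3, 47.8 and 59.5 CPM in DMH1 to DMH4 and 85.3, 105, 95.7 and 83.98 CPM in CTL1 to CTL4. All 4 DMH libraries lay below all 4 CTL libraries. Its mean of 48.7 ± 7.95 CPM in DMH and 92.4 ± 9.74 in CTL (SD, n = 4 each) gave a log2 fold change of -0.92 ± 0.16 (SE, edgeR adjusted p = 0.0112). Psma5 (ENSMUSG00000068749, chromosome 3, 108256926 to 108279974) was the lowest of the alpha ring genes in CPM, with 7.68, 6.71, 8.56 and 7.16 CPM in DMH1 to DMH4 and 14.3, 25.9, 17.9 and 12.1 CPM in CTL1 to CTL4. The groups did not overlap, and CTL2 stood highest. It fell by 1.22 ± 0.25 on the log2 scale (edgeR adjusted p = 0.0140). Of the 25-base words of Psma5, 51.2% also occur in the pseudogene Gm8394 and 39.9% in Gm12989, so its count is uncertain. Gm8394 averaged 1.60 CPM in DMH and 6.73 in CTL, and Gm12989 6.03 in DMH and 17.4 in CTL. With the counts of both added to Psma5, the log2 fold change was -1.42 ± 0.26 (edgeR adjusted p = 0.0114).

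The 5 other alpha ring genes were not called. Psma1 measured 16.1, 40.5, 25.2 and 31.9 CPM in DMH1 to DMH4 and 47.9, 62.9, 39.9 and 36.6 CPM in CTL1 to CTL4, with DMH1 far below the other libraries and DMH2 within the CTL range; its log2 fold change was -0.72 ± 0.27 (edgeR adjusted p = 0.0892). Psma2 came next at -0.57 ± 0.19 (edgeR adjusted p = 0.0569); CTL1, at 59.02 CPM, lay within the DMH range of 53.6 to 63.02. The log2 fold changes of Psma7, Psma4 and Psma3 were -0.42, -0.37 and -0.23. Psma3 had 17.6, 21.4, 23.5 and 20.9 CPM in DMH1 to DMH4 and 18.5, 27.5, 24.7 and 27.3 CPM in CTL1 to CTL4, which overlapped widely. It shares 16.5% of its words with Gm13835, which averaged 62.4 CPM over all libraries beside 22.8 for Psma3, so its value is uncertain.

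In the beta rings 2 of 7 genes were called. Psmb4 (ENSMUSG00000005779, chromosome 3, 94884093 to 94886961), a subunit without a cutting site, measured 49.4, 85.6, 80.3 and 102 CPM in DMH1 to DMH4 and 153, 179, 145 and 108 CPM in CTL1 to CTL4. The highest DMH library, DMH4, was just below the lowest CTL library, CTL4, and the log2 fold change was -0.88 ± 0.24 (edgeR adjusted p = 0.0300). Psmb7 (ENSMUSG00000026750, chromosome 2, 38588036 to 38644087) carries the trypsin-like cutting site. It measured 25.5, 40.3, 46.5 and 46.3 CPM in DMH1 to DMH4 and 52.1, 91.2, 82.8 and 60.4 CPM in CTL1 to CTL4, again without overlap, and its log2 fold change was -0.85 ± 0.23 (edgeR adjusted p = 0.0314). Exons of Psmb7 share 405 bases with Nek6 of the opposite strand. Nek6 averaged 40.7 CPM and Psmb7 62.3 CPM, and no strand setting is given, so this value is uncertain.

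The genes of the other cutting sites were not called. Psmb5, of the chymotrypsin-like site, had 82.3, 92.3, 83.2 and 104 CPM in DMH1 to DMH4 and 82.9, 139.5, 154 and 134 CPM in CTL1 to CTL4. Psmb6, of the caspase-like site, had 118, 118, 119.6 and 128 CPM in DMH1 to DMH4 and 111, 174, 204 and 161 CPM in CTL1 to CTL4. In both genes 3 of the CTL libraries lay above all DMH libraries and CTL1 lay within or below the DMH range. Their log2 fold changes were -0.50 ± 0.20 (edgeR adjusted p = 0.108) and -0.42 ± 0.19 (edgeR adjusted p = 0.147). Psmb5 shares 65% of its words with Gm3375, which averaged 0.192 CPM. Among the beta subunits without a site, Psmb2 had no overlap between the groups but an edgeR adjusted p of 0.0786 (-0.50 ± 0.18). Psmb1 and Psmb3 had log2 fold changes of -0.42 and -0.18. Psmb3 was at 63.3 CPM in CTL1, below all 4 DMH libraries, which lay between 89.98 and 99.9. It shares 18.1% of its words with AC114990.3 and 13.9% with Gm4950, which averaged 7.94 and 16.7 CPM beside 107.3 for Psmb3.

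The ATPase ring, which unfolds the substrate, had 4 of its 6 genes called. Psmc1 (ENSMUSG00000021178, chromosome 12, 100110154 to 100123405), a subunit whose tail docks on the alpha ring and helps to open the gate, measured 43.7, 50.8, 40.5 and 61.6 CPM in DMH1 to DMH4 and 96.4, 108, 85.1 and 74.8 CPM in CTL1 to CTL4. DMH and CTL did not overlap, and the log2 fold change was -0.89 ± 0.18 (edgeR adjusted p = 0.0138). Of its words 29.2% occur in Gm9575, which averaged 3.92 CPM. Psmc3 (ENSMUSG00000002102, chromosome 2, 91054009 to 91066369), which also docks on the gate, measured 58.2, 68.3, 65.99 and 80.4 CPM in DMH1 to DMH4 and 89.2, 126, 111 and 103 CPM in CTL1 to CTL4. Here too the groups were apart, at -0.65 ± 0.16 (edgeR adjusted p = 0.0230). Its exons share 215 bases with Slc39a13 of the opposite strand, at 12.6 CPM on average.

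Psmc2 (ENSMUSG00000028932, chromosome 5, 21785283 to 21803787) measured 47.7, 47.6, 46.5 and 58.4 CPM in DMH1 to DMH4 and 53.98, 88.6, 77.98 and 80.7 CPM in CTL1 to CTL4. For Psmc5 (ENSMUSG00000020708, chromosome 11, 106256154 to 106263120) the values were 82.1, 80.8, 65.7 and 89.9 CPM in DMH1 to DMH4 and 84.2, 125, 128 and 128 CPM in CTL1 to CTL4. Both genes were called although CTL1 lay within the DMH range. Their log2 fold changes were -0.59 ± 0.17 (edgeR adjusted p = 0.0396) and -0.54 ± 0.17 (edgeR adjusted p = 0.0474). The other two ATPases had the smallest fold changes of the 31 genes. Psmc4 measured 74.2, 82.2, 70.4 and 82.6 CPM in DMH1 to DMH4 and 79.3, 104, 88.03 and 78.4 CPM in CTL1 to CTL4, with a log2 fold change of -0.18 ± 0.15 (edgeR adjusted p = 0.437). Psmc6 measured 61.8, 82.6, 74.9 and 76.6 CPM in DMH1 to DMH4 and 61.1, 90.3, 78.3 and 89.8 CPM in CTL1 to CTL4, with -0.11 ± 0.16 (edgeR adjusted p = 0.672). The groups overlapped in both, and without DMH1 the value of Psmc6 was 0.0072. Subunits of 1 ring, present in equal number in the assembled cap, thus had log2 fold changes from -0.89 to -0.11; the differences between genes were not tested.

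Among the 11 other cap genes 5 were called. Psmd2 (ENSMUSG00000006998, chromosome 16, 20651652 to 20663414), the base scaffold that binds ubiquitin and shuttle receptors, measured 42, 55.2, 43.2 and 56.5 CPM in DMH1 to DMH4 and 72.5, 100.3, 77.1 and 66.7 CPM in CTL1 to CTL4. The groups were apart and the log2 fold change was -0.69 ± 0.18 (edgeR adjusted p = 0.0253). Of the words of Psmd2, 34.4% occur in Gm5422, which averaged 0.585 CPM. Psmd1, the other scaffold, was not called, at -0.46 ± 0.19 (edgeR adjusted p = 0.118). Psmd4 (ENSMUSG00000005625, chromosome 3, 95032694 to 95042614), a ubiquitin receptor, measured 94.9, 107, 82.7 and 97.8 CPM in DMH1 to DMH4 and 92.6, 187, 174 and 164 CPM in CTL1 to CTL4. DMH lay below CTL2, CTL3 and CTL4, while CTL1 was within the DMH range; the log2 fold change was -0.69 ± 0.20 (edgeR adjusted p = 0.0390).

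Of the 8 lid genes, 3 were called. Psmd8 (ENSMUSG00000030591, chromosome 7, 29174188 to 29180701) measured 22.9, 28.2, 25.4 and 36.3 CPM in DMH1 to DMH4 and 45.95, 54.7, 39.5 and 43.1 CPM in CTL1 to CTL4. Psmd11 (ENSMUSG00000017428, chromosome 11, 80428615 to 80473248), which clamps the lid to the core, had 18.9, 22.5, 29.4 and 28.7 CPM in DMH1 to DMH4 and 31.2, 66.8, 38.2 and 40.1 CPM in CTL1 to CTL4. Psmd7 (ENSMUSG00000039067, chromosome 8, 107580381 to 107588464), the partner of the deubiquitinase Psmd14, had 27.3, 25.7, 27.9 and 26.6 CPM in DMH1 to DMH4 and 45.3, 46.5, 32.4 and 30.6 CPM in CTL1 to CTL4. No DMH library of these genes reached the lowest CTL library. The log2 fold changes were -0.70 ± 0.18 for Psmd8 (edgeR adjusted p = 0.0242), -0.82 ± 0.23 for Psmd11 (edgeR adjusted p = 0.0342) and -0.52 ± 0.16 for Psmd7 (edgeR adjusted p = 0.0480). Psmd3 and Psmd14, which cuts off the ubiquitin chain, also had no overlap but were not called, at -0.54 ± 0.18 (edgeR adjusted p = 0.0585) and -0.61 ± 0.21 (edgeR adjusted p = 0.0616). Psmd12 and Psmd6 had log2 fold changes of -0.48 and -0.33.

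Psmd13, a lid subunit, had the largest fold change of the 31 genes and was not called. It measured 2.87, 6.28, 8.50 and 8.28 CPM in the DMH libraries, 10.3, 4.10, 9.70 and 6.93 CPM in the DM libraries and 22.7, 20.8, 12 and 8.01 CPM in the CTL libraries. CTL1 and CTL2 were high, and CTL4 lay below the 2 highest DMH libraries; the log2 fold change of DMH over CTL was -1.29 ± 0.41 (edgeR adjusted p = 0.0527). Its exons share 342 bases with Sirt3 of the opposite strand. Sirt3 averaged 62.5 CPM and Psmd13 10.6 CPM, so its value is uncertain.

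**Figure D3:**
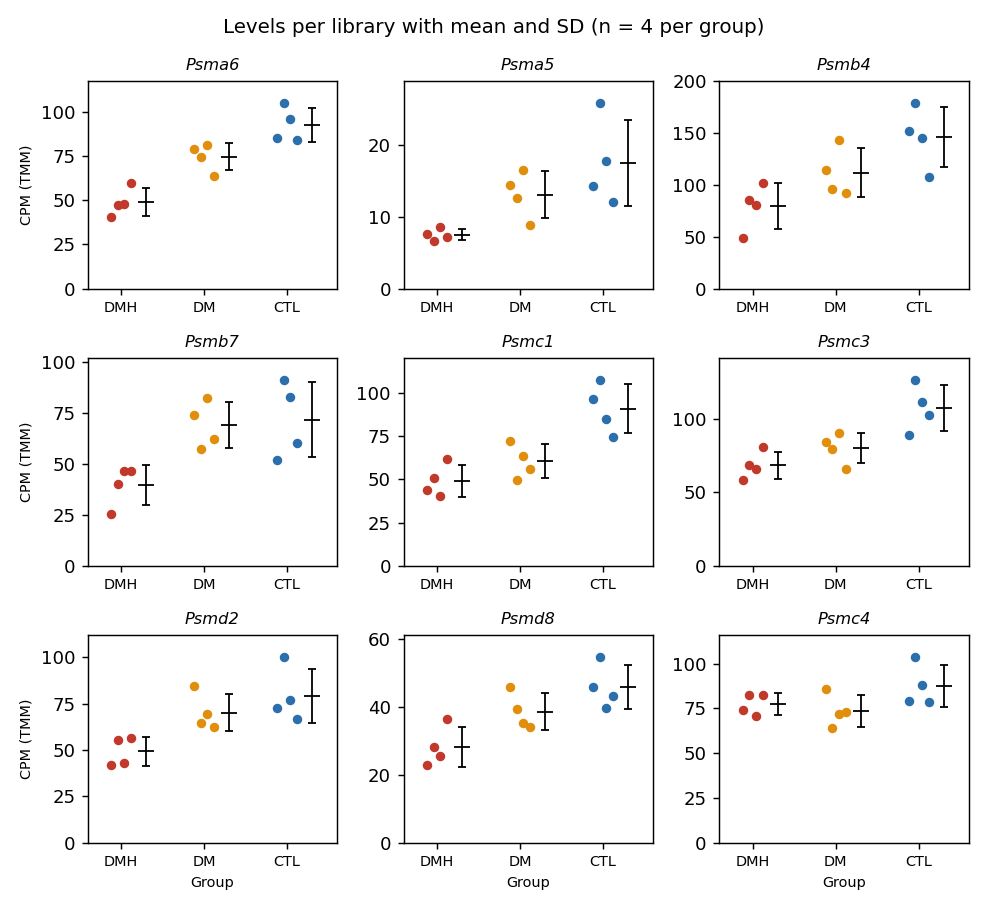
CPM in each library for Psma6, Psma5, Psmb4, Psmb7, Psmc1, Psmc3, Psmd2, Psmd8 and Psmc4 (1 panel each, DMH left, then DM, then CTL; points are libraries, and the dash with its vertical bar is the group mean with its SD). Psma6 lies between 40.3 and 59.5 in DMH and between 84.0 and 105 in CTL, while the groups of Psmc4 overlap.

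The share of called genes was 4 of 14 in the core, 4 of 6 among the ATPases and 5 of 11 among the other cap genes. The median log2 fold change of DMH over CTL was -0.50 in the core, -0.57 in the ATPases and -0.61 in the other cap genes. Within the core it was -0.57 in the alpha ring, -0.50 in the 3 genes with cutting sites and -0.46 in the 4 beta genes without one. Whether the classes differ was not tested. The range was -1.22 to -0.18 in the core, -0.89 to -0.11 in the ATPases and -1.29 to -0.33 in the other cap genes.

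**Figure D4:**
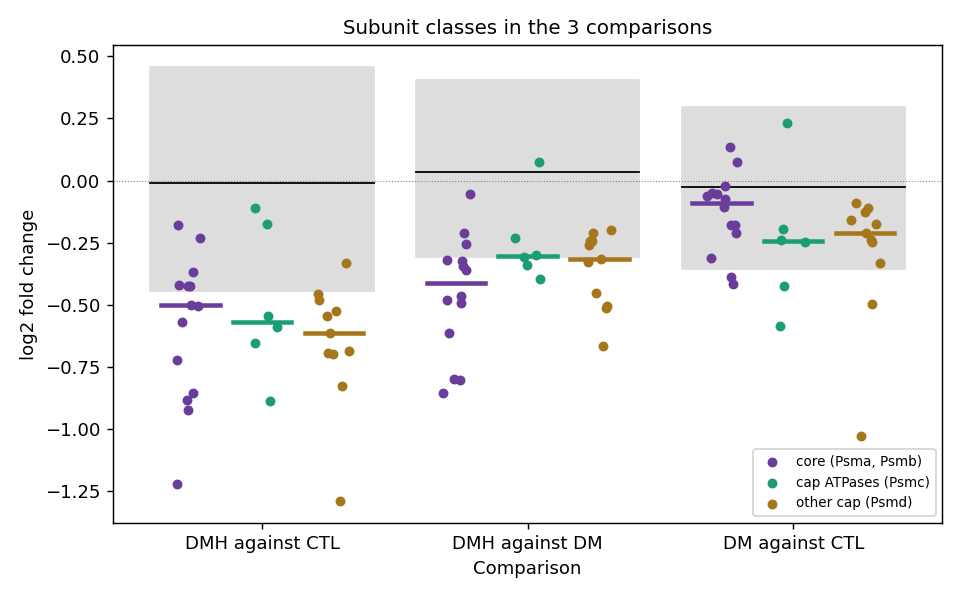
Log2 fold change of each gene in DMH against CTL, DMH against DM and DM against CTL, by class (points are genes, short lines class medians); the grey band is the middle 50% of all tested genes and the black line their median. The class medians lie below the median of all genes in each comparison, and all 31 points are below 0 for DMH against CTL.

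Averaged over the 31 genes, the log2 level differed from the mean of the 12 libraries by -0.51, -0.27, -0.33 and -0.16 in DMH1 to DMH4, by 0.14, -0.06, 0.27 and -0.11 in DM1 to DM4, and by 0.02, 0.56, 0.30 and 0.15 in CTL1 to CTL4. All DMH libraries were below the mean and all CTL libraries above it, with CTL2 far from CTL1. The DM libraries lay above all DMH libraries and overlapped with CTL.

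The mitochondrial share, the percentage of a library's counts on genes of the mitochondrial genome, averaged 30.1% ± 6.23 in DMH, 24.2% ± 6.55 in DM and 15.4% ± 7.36 in CTL (SD, n = 4 each). The libraries stood at 37.6%, 31.3%, 29.1% and 22.5% in DMH1 to DMH4, 21.9%, 33.7%, 18.7% and 22.3% in DM1 to DM4 and 7.88%, 10.7%, 19.7% and 23.5% in CTL1 to CTL4, and the groups overlapped. The DMH library with the lowest share, DMH4, was also the DMH library with the highest proteasome level, and CTL1, with the lowest share of all, had the lowest proteasome level in CTL. With this percentage as a covariate, edgeR called 0 of the 31 genes and 0 of all tested genes between DMH and CTL, while 7 of the 31 genes, and 1632 of all tested genes, had an unadjusted p under 0.05. The median log2 fold change was -0.43 and 30 of 31 genes were below 0, the exception being Psmd13 at 0.12 ± 0.30. The number of genes called also depended on single libraries. It was 3 without CTL2, DMH1 or DMH3, where 1.73%, 2.56% and 2.76% of all tested genes were called lower. It was 4 without CTL3 or DMH2 (5.11% and 4.23%), 7 without DM1 (5.56%) and 8 without DM2 or DM3 (5.49% and 5.8%). Psma5, Psma6 and Psmc1 were called in each of the 12 fits that left out 1 library. Their edgeR adjusted p was highest without CTL2, at 0.0468, 0.0392 and 0.0477. The share of all tested genes called in all 12 fits was not counted.

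**Figure D5:**
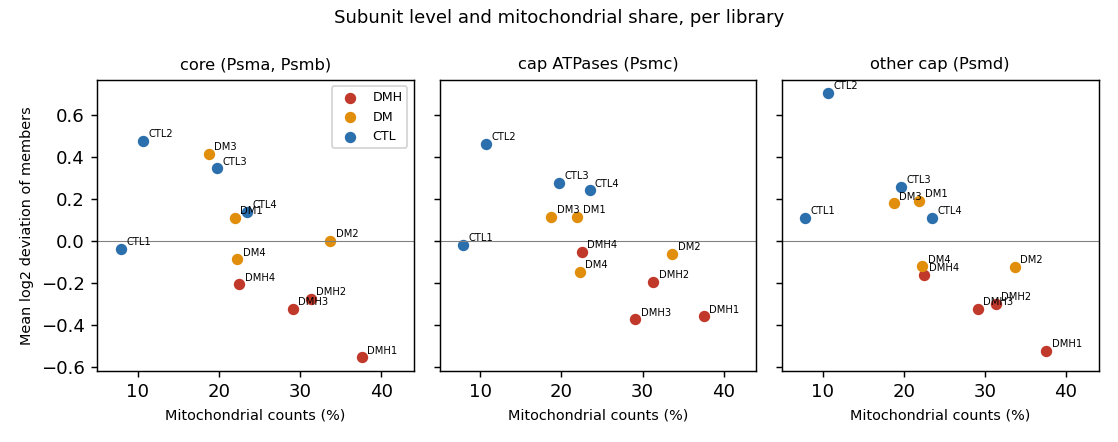
Mean log2 deviation of core, ATPase and other cap genes from their mean over all libraries (y) against the mitochondrial share of counts in percent (x), 1 point per library, DMH, DM and CTL in colour. DMH1 is at 37.6% with the lowest values in the core and other cap panels, and CTL1 is at 7.88% with values near 0.

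Comparing DMH with DM, the edgeR test called 0 of the 31 genes in either direction, where 0.00683% of all tested genes were lower and 0.0273% higher. At an unadjusted p under 0.05, 11 genes were lower in DMH, against 10.3% of all tested genes, and 0 were higher, against 10.4%. DESeq2 called 2 lower, Psmb7 and Psma6, where it called 2.12% of all tested genes lower, and limma called 0. The log2 fold change was below 0 in 30 of 31 genes (47.5% of all tested genes), the exception being Psmc4 at 0.07. Its median was -0.33, against 0.03 over all tested genes. By class the median was -0.41 in the core, -0.30 in the ATPases and -0.32 in the other cap genes. In 12 genes every DMH library lay below every DM library (7.36% of all tested genes), and in 0 above (5.67%).

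Within the core, Psma6 had 40.3, 47.3, 47.8 and 59.5 CPM in the DMH libraries and 78.9, 74.5, 81.1 and 63.7 CPM in the DM libraries, without overlap, and a log2 fold change of -0.61 ± 0.15 (edgeR adjusted p = 0.115). Psmb7, of the trypsin-like site, had 25.5, 40.3, 46.5 and 46.3 CPM in the DMH libraries and 74, 57.5, 82.5 and 62.1 CPM in the DM libraries, also without overlap, at -0.80 ± 0.23 (edgeR adjusted p = 0.129). Psma5 followed at -0.80 ± 0.25 (edgeR adjusted p = 0.138). None of the 3 passed the threshold. Among the ATPases the smallest p-values were those of Psmc2 at -0.40 ± 0.17 (edgeR adjusted p = 0.221), Psmc6 at -0.34 ± 0.16 (edgeR adjusted p = 0.251) and Psmc5 at -0.31 ± 0.17 (edgeR adjusted p = 0.323). Psmc6 measured 61.8, 82.6, 74.9 and 76.6 CPM in the DMH libraries and 86.7, 102, 99.9 and 86.5 CPM in the DM libraries, and only in this ATPase did the 2 groups not overlap. In the rest of the cap, Psmd2 was at -0.51 ± 0.18 (edgeR adjusted p = 0.151), Psmd11 at -0.66 ± 0.23 (edgeR adjusted p = 0.154) and Psmd8 at -0.45 ± 0.18 (edgeR adjusted p = 0.180). Psmd11 had 18.9, 22.5, 29.4 and 28.7 CPM in the DMH libraries and 38.6, 36.8, 46.2 and 36.2 CPM in the DM libraries, with DMH below DM in every library.

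Comparing DM with CTL, the edgeR test again called 0 of the 31 genes, where 0.0683% of all tested genes were lower and 0.150% higher. At an unadjusted p under 0.05, 4 genes were lower in DM, against 10.4% of all tested genes, and 0 were higher, against 8.43%. DESeq2 and limma called 0, where they called 3.2% and 0.458% of all tested genes lower. The log2 fold change was below 0 in 28 of 31 genes (52.4% of all tested genes), with Psma1, Psmb3 and Psmc6 above 0. Its median was -0.18, against -0.03 over all tested genes, and by class -0.09 in the core, -0.24 in the ATPases and -0.21 in the other cap genes. The median was -0.09 without CTL2 and -0.28 without CTL1. The comparisons share libraries: DM stands in this one and the previous one, and CTL in this one and the first.

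Psmc1 and Psma6 were the 2 genes in which every DM library lay below every CTL library (7.72% of all tested genes), and in 0 genes did every DM library lie above (7.32%). Psmc1 had 72.5, 49.9, 63.6 and 56.3 CPM in the DM libraries and 96.4, 108, 85.1 and 74.8 CPM in the CTL libraries, with a log2 fold change of -0.59 ± 0.18 (edgeR adjusted p = 0.123). Psma6 was at -0.31 ± 0.15 (edgeR adjusted p = 0.300). Of the other core genes with the smallest p-values, Psma5 was at -0.42 ± 0.25 (edgeR adjusted p = 0.393) and Psmb4 at -0.39 ± 0.24 (edgeR adjusted p = 0.403). The ATPase genes Psmc3 and Psmc4 were at -0.42 ± 0.16 (edgeR adjusted p = 0.184) and -0.25 ± 0.15 (edgeR adjusted p = 0.385). The other cap genes Psmd13, Psmd4 and Psmd3 were at -1.03 ± 0.41 (edgeR adjusted p = 0.201), -0.49 ± 0.20 (edgeR adjusted p = 0.212) and -0.33 ± 0.18 (edgeR adjusted p = 0.342). None of these passed the threshold.

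The cutting sites can be exchanged for those of the immunoproteasome, in which Psmb8, Psmb9 and Psmb10 take the places of Psmb5, Psmb6 and Psmb7. None of the 3 genes was called in any comparison. Per length, Psmb10 over Psmb7 was 0.802, 0.433, 0.237 and 0.431 in DMH1 to DMH4, 0.223, 0.199, 0.211 and 0.157 in DM1 to DM4 and 0.644, 0.192, 0.173 and 0.431 in CTL1 to CTL4. All DMH ratios were above all DM ratios, and CTL spanned both. Psmb10 itself overlapped, at 12.6 to 23.2 CPM in DMH and 11.1 to 19.8 in DM. Psmb7, below the line in this ratio, had a log2 fold change of -0.80 in DMH over DM. An exact two-sided permutation test of the log2 ratio gave p = 0.0286 for DMH against DM, the smallest that 70 arrangements allow, and 0.257 after adjustment over the 9 ratio tests. Psmb8 over Psmb5 averaged 0.165 ± 0.0541 in DMH, 0.0993 ± 0.0168 in DM and 0.155 ± 0.0736 in CTL, and Psmb9 over Psmb6 averaged 0.0661 ± 0.0344 in DMH, 0.0487 ± 0.0168 in DM and 0.0373 ± 0.0166 in CTL (SD, n = 4 each). Their exact permutation p-values ran from 0.0571 to 0.714 over the 3 comparisons. The standard subunits exceeded the immunoproteasome subunits in all 12 libraries. Psmb11 of the thymus was at 0 in all 12 libraries, and Psma8 of the testis was too low to be tested.

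Genes that build, feed and regulate the proteasome were counted over lists written from textbook knowledge. Between DMH and CTL, 3 of 8 assembly chaperone genes were called lower, where 8.15% of all tested genes were lower, a share that holds for the lists that follow: Pomp, which helps the core to mature, and Psmd9 and Psmd10, which assemble the ATPase ring. Pomp measured 15.99, 30.9, 33.3 and 33.3 CPM in DMH1 to DMH4 and 57.4, 61.6, 48.6 and 40.3 CPM in CTL1 to CTL4, with a log2 fold change of -0.87 ± 0.24 (edgeR adjusted p = 0.0330), and the groups did not overlap. Psmd9 had 19.1, 22.6, 23.4 and 21.3 CPM in DMH1 to DMH4 and 40.2, 37.6, 33.05 and 28.7 CPM in CTL1 to CTL4, likewise apart, at -0.69 ± 0.16 (edgeR adjusted p = 0.0190). Psmd10 was at -1.01 ± 0.26 (edgeR adjusted p = 0.0257), with CTL4 within the DMH range. Of the shuttle receptors, which bring ubiquitinated proteins to the cap, 2 of 6 were lower. Ubqln1 had 33.3, 43.5, 35.6 and 52.9 CPM in DMH1 to DMH4 and 78.6, 105, 74.96 and 68.8 CPM in CTL1 to CTL4, and its log2 fold change was -0.99 ± 0.19 (edgeR adjusted p = 0.0120). Ubqln2 was at -1.04 ± 0.26 (edgeR adjusted p = 0.0234).

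Of the ubiquitin genes and ubiquitin-activating enzymes, 2 of 6 were lower in DMH than in CTL. The polyubiquitin gene Ubb had 280.2, 403, 209 and 459 CPM in DMH1 to DMH4 and 656, 629.9, 777 and 549 CPM in CTL1 to CTL4, without overlap, at -0.95 ± 0.25 (edgeR adjusted p = 0.0275), and the activating enzyme gene Uba1 was at -0.55 ± 0.15 (edgeR adjusted p = 0.0314). In the list of the p97 unfoldase, which extracts ubiquitinated proteins from membranes and complexes, Vcp was lower, 1 of 4, at -0.67 ± 0.20 (edgeR adjusted p = 0.0390). In the list of core activators and the inhibitor, Psme3, which caps the nuclear proteasome, was lower, 1 of 6, at -0.55 ± 0.16 (edgeR adjusted p = 0.0410). None of the 6 genes listed as cap-bound ubiquitin receptors, deubiquitinases and small subunits was called. Sem1 was the nearest, at -0.48 ± 0.17 (edgeR adjusted p = 0.0688). The 2 nuclear import genes were not called either. Ipo9 was at 0.16 ± 0.13 (edgeR adjusted p = 0.432), and at -0.053 with the trend on gene length removed. Of the immunoproteasome genes, Psmb9 had the smallest p, at 0.50 ± 0.33 (edgeR adjusted p = 0.322).

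The list around NFE2L1 had 2 of 8 genes called, both higher in DMH than in CTL, where 7.25% of all tested genes were higher. Nfe2l2, the relative of NFE2L1 that directs the antioxidant response, measured 123, 148, 205 and 86.3 CPM in the DMH libraries, 124, 109, 199 and 143 CPM in the DM libraries and 56.3, 63.01, 56.04 and 54.2 CPM in the CTL libraries. Every DMH and every DM library was above every CTL library. The log2 fold change was 1.29 ± 0.25 for DMH over CTL (edgeR adjusted p = 0.0124) and 1.32 ± 0.25 for DM over CTL (edgeR adjusted p = 0.0586, not called). Mafg, a small Maf protein that pairs with both factors, had 142, 129.8, 202 and 126 CPM in DMH1 to DMH4 and 97.8, 61.9, 82.9 and 75.1 CPM in CTL1 to CTL4. Its groups did not overlap, and it rose by 0.92 ± 0.19 in DMH over CTL (edgeR adjusted p = 0.0140). Nfe2l1 itself measured 48.7, 17.2, 58.8 and 18.1 CPM in the DMH libraries, 15.2, 64.5, 18.98 and 20.8 CPM in the DM libraries and 16.1, 14.5, 20.4 and 23.8 CPM in the CTL libraries. DMH1, DMH3 and DM2 were high and the other 9 libraries lay between 14.5 and 23.8 CPM; the log2 fold change of DMH over CTL was 0.93 ± 0.51 (edgeR adjusted p = 0.229), of DMH over DM 0.26 ± 0.51 and of DM over CTL 0.67 ± 0.51. With the mitochondrial percentage as covariate the signs turned, to -0.31 for DMH over CTL, -0.074 for DMH over DM and -0.24 for DM over CTL; DMH over DM was -0.079 without DMH3 and DM over CTL was -0.017 without DM2.

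In neither comparison with DM was any gene of these lists called. In DMH against DM the smallest p in each list belonged to Psmd5, an assembly chaperone of the ATPase ring, at -1.21 ± 0.29 (edgeR adjusted p = 0.114), Ubqln1 at -0.71 ± 0.19, Uba1 at -0.58 ± 0.15, Mafk at 0.54 ± 0.17, Psme3 at -0.50 ± 0.16, Adrm1 at -0.53 ± 0.18, Vcp at -0.43 ± 0.20, Akirin2 at -0.36 ± 0.16 and Psmb8 at 0.43 ± 0.22. Psmd5 had 3.18, 3.64, 3.49 and 4.67 CPM in the DMH libraries, 6.09, 10.1, 6.69 and 11.9 CPM in the DM libraries and 5.10, 5.37, 3.19 and 2.92 CPM in the CTL libraries, so that DM lay above both other groups without overlap. In DM against CTL its log2 fold change was 1.07 ± 0.29 (edgeR adjusted p = 0.102). Smallest p-values of other lists in that comparison belonged to Nfe2l2 (above), Psmb8 at -0.72 ± 0.22, Ddi2 at 0.32 ± 0.13, Psme1 at -0.44 ± 0.19, Nsfl1c at -0.23 ± 0.14, Ecpas at -0.24 ± 0.17 and Akirin2 at 0.17 ± 0.16.

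NFE2L1 and NFE2L2 bind the antioxidant response element, so the 250 bases before the RefSeq start site (GRCm38.p6) were searched for it, as TGACNNNGC on both strands. Its first letters, TGAC, also open the AP-1 and cAMP response elements. Promoter sequence was matched for 25 of the 31 genes. The element stood in 10.2% of 32851 RefSeq promoters, a share per promoter, not per gene, that includes genes not tested here. Among tested genes with a RefSeq promoter, 1420 had it and 8866 did not. Of the 25 genes it stood in 4 (16%): the cutting site genes Psmb5 and Psmb6, the ATPase gene Psmc6 and the lid gene Psmd12. The windows below are 69 bases long, run 5′ to 3′ on the strand of the gene and are shown because they hold these 4 matches, in capitals (on the opposite strand in Psmc6 and Psmd12). They cover chr14:54618004-54618072 (minus strand), chr11:70525288-70525356 (plus strand), chr14:45329574-45329642 (plus strand) and chr11:107479278-107479346 (plus strand).
Psmb5: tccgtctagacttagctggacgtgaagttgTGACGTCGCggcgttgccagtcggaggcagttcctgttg
Psmb6: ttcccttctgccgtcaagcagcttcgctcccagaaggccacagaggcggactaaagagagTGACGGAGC
Psmc6: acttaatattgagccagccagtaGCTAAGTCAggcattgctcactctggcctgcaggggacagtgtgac
Psmd12: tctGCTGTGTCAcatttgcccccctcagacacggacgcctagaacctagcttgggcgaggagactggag
The first base of the match lay 47 bases before the start site in Psmb5 and 9 bases before it in Psmb6.

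Between DMH and CTL 0 of these 4 genes and 10 of the 21 genes without the element were called lower. Over all tested genes with a RefSeq promoter, 7.25% of those with the element and 7.18% of those without it were called lower. The median log2 fold change was -0.45 over the 4 and -0.61 over the 21, and the range over the 4 was -0.50 to -0.11. The CCAAT box (ATTGG, both strands) stood in 10 of the 25 genes (40%). It stood in 33.8% of all RefSeq promoters, a share per promoter that includes untested genes. The like count is per tested gene with a RefSeq promoter: 4153 had it and 6133 did not. Of the 10 genes 4 were called lower, against 7.27% of all tested genes with the box. Of the 15 genes without it, 6 were called lower, against 7.14% of all tested genes without it. Psma6 and Psmc1 had the CCAAT box, and Psma5 did not. The GC box (GGGCGG, both strands) stood in 14 of the 25 genes (56%). It stood in 32.7% of all RefSeq promoters, again a share per promoter that includes untested genes. Per tested gene with a RefSeq promoter, 6294 had it and 3992 did not, so most tested genes held the box as well. Of the 14 genes 4 were called lower, against 7.02% of all tested genes with the box. Of the 11 genes without it, 6 were called lower, against 7.46% of all tested genes without it. A match is a sequence and not a shown binding site, and genes without one may hold the element outside this window.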

How the data were processed

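RNA sequencing of 12 mouse liver libraries was re-analysed, 4 in each of the groups DMH, DM and CTL, which are read from the sample titles. Per the series' design text, the authors checked reads with FastQC 0.11.8, filtered them with Trimmomatic 0.36, aligned them to GRCm38 with Hisat2 2.1.0 and counted them with StringTie. StringTie's version, annotation and strand handling were not given in the sources used here. As deposited by the authors, the table holds a whole-number count and an FPKM per gene and library. The deposited FPKM equal the count over 1 fixed length per gene and the plain library total, for 100% of genes within 0.1%.

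Counts were tested with edgeR 4.0.16 in R 4.3.3 (quasi-likelihood F test, robust, TMM factors, 1 mean per group over 12 libraries, 9 residual degrees of freedom). filterByExpr, with min.count 10 and min.total.count 15, kept 14643 genes. p-values were adjusted by Benjamini-Hochberg over these genes, and a gene was called under 0.05. The standard error is the absolute log2 fold change over the square root of F. Levels are TMM-scaled CPM, as mean ± SD, except those that the Results place on the plain total. Totals of 13430122 to 17038017 counts limit the precision of genes with low counts. Chi-square per degree of freedom between replicates was 39.5 to 432, far above sampling noise. Same-numbered libraries did not deviate together. The scripts were tested on simulated counts.

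All 31 genes are accounted for. Statistics are given for every called gene and for the 3 smallest p-values of each class in each comparison, and for pathway genes for the smallest p of each list plus Nfe2l1, except 1 result that is not reported here; other genes and ratios were named after their values were seen. The members and lists were chosen with earlier results of these data known. Alternatives were other scalings, filters, tools (DESeq2 1.42.0, limma 3.58.1 on log2(FPKM + 1)), covariates, a replicate block and leaving out each library. Shared 25-base words and exonic bases were measured on GENCODE M21, where all 31 genes have the coordinates of the deposited table; promoters are RefSeq sequences of GRCm38.p6. Python 3.11.15 and SciPy 1.17.1 were used.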

Additional observations from a re-analysis of the deposited data

Results flagged for a closer look

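In 5 of 93 groups of 4 libraries 1 library stood apart from the other 3 by Dixon's test at its 95% critical value; chance flags about 1 in 20 groups. CTL1 was low in Psma7, at 74.4 CPM where CTL2 to CTL4 had 118 to 124. It was low in Psmc5 too, at 84.2 CPM where CTL2 to CTL4 had 125 to 128. Psmc2 was at 58.4 CPM in DMH4, against 46.5 to 47.7 in the other DMH libraries. Psmb6 was at 128.0 CPM in DMH4, against 118 to 119.6 in the other DMH libraries. Psma2 was at 101.5 CPM in DM3, against 70.3 to 74.2 in the other DM libraries.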

How the results depend on the processing

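The median log2 fold change of the 31 genes kept its direction under all alternatives, at -0.64 to -0.42 for DMH over CTL, -0.38 to -0.24 for DMH over DM and -0.29 to -0.09 for DM over CTL, but single genes changed sign. For DMH over CTL these were Psmc6 without DMH1 (-0.18 to 0.0072 without 1 library), Psmd13 (0.12) and Nfe2l1 (-0.31) with the mitochondrial covariate and Ipo9 (-0.053) with the length trend removed. Nfe2l1 also turned to -0.074 for DMH over DM and -0.24 for DM over CTL with the covariate; without 1 library it ran from -0.079 to 0.9995 for DMH over DM, lowest without DMH3, and from -0.017 to 0.91 for DM over CTL, lowest without DM2. Between DMH and CTL, 13 genes were called, against 17 with DESeq2, 3 with limma on FPKM, 3 with only the 8 libraries of the comparison, 0 with the mitochondrial percentage as covariate and 3 to 13 without 1 library. Over all genes this comparison called 2255 (1062 higher and 1193 lower), against 3168 with DESeq2 (1563 higher and 1605 lower). It called 1012 with limma (268 higher and 744 lower), 629 with the 8 libraries and 0 with the covariate (1632 at an unadjusted p under 0.05). Without 1 library it called 623 to 2967. Between DMH and DM, DESeq2 called 2 of the 31 genes and the other settings 0. Over all genes it called 5, against 10 with upper-quartile factors, 12 with the strict filter, 683 with DESeq2, 2 with the covariate and 1 to 155 without 1 library. Between DM and CTL every setting called 0 of the 31 genes; over all genes it called 32, against 65 with no filter, 852 with DESeq2, 80 with limma, 367 with the 8 libraries, 3 with the covariate and 7 to 248 without 1 library. The causes were not tested. A further fit, chosen after seeing the data, added to 8 genes the counts of copies that share at least 10% of their words. It left 11 genes called, where 7.38% of all tested genes were lower. The genes lost were Psmc5 and Psmd7, which had no such copy.

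Equal replicate numbers did not pair the libraries: deviations of same-numbered libraries correlated at -0.13 to 0.11, and 1 of 12 pairs exceeded 0.1. With the replicate block, 3 of the 31 genes were called between DMH and CTL, and over all genes the block left 1001 called there and 1 in each comparison with DM. Depth limits genes with few counts, such as Psmd5 and Psmd10.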
